A study of Mus musculus with 12 samples.

Results

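The 7 genes of monocyte recruitment described here are 5 ligands (Ccl2, Ccl7, Ccl12, Ccl8 and Cx3cl1) and the receptors Ccr2 and Cx3cr1. They were taken by gene symbol from a table of 750 immune genes, and all 7 were present. Tumors of the K14-Cre;Brcaf/fTrp53f/f model, in which a keratin 14 promoter drives Cre and the epithelium loses Brca1 and p53, were transplanted orthotopically into immunocompetent syngeneic FVB/129P2 females and were treated from a volume of 150 to 300 mm3. Vehicle mice received DMSO in saline intraperitoneally and saline into the tumor. ADU-S100 mice received 50 μg of this STING agonist once, in 40 μl, into the tumor, with intraperitoneal DMSO. Olaparib mice received this PARP inhibitor at 50 mg/kg daily with intratumoral saline, and combination mice received both drugs. All tumors were taken on day 3, with 3 tumors per group and 12 in all. Gene expression was measured with a nanoString nCounter panel, on which barcoded probes that bind RNA are counted without amplification. Values are normalized counts on a linear scale. Each tumor is a separate sample, and its number is the one given by the labels.

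Classical monocytes leave the bone marrow and enter inflamed tissue through CCR2, whose ligands in the mouse include CCL2, CCL7 and CCL12. CCL8 is a related CC chemokine that in mice binds CCR8. CX3CL1, or fractalkine, is made as a membrane-bound protein that holds cells bearing CX3CR1, a receptor of patrolling monocytes and of many tissue macrophages. Innate sensors such as STING induce several CC chemokines through NF-κB and interferon signaling, and tumors use CCL2 to draw monocytes that become macrophages.

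In RefSeq (GRCm38.p6), Ccl2, Ccl7, Ccl11, Ccl12 and Ccl8 follow each other on chromosome 11 with no other protein-coding gene between them, while Ccr2 and Cx3cr1 are both on chromosome 9 with 58 protein-coding genes between them. Of the 7 genes, 5 had an entry among the RefSeq promoter windows (Ccl12, Ccl8, Ccr2, Cx3cl1 and Cx3cr1). The 250 bases before the start sites of Ccl12 and Ccl8, both on the plus strand, are shown because these neighbors in the cluster differed in how far they varied between tumors. Capitals mark a TATA box (TATAAA, searched on the gene's strand only), which began 31 bases before the start site in Ccl12 and 32 bases before it in Ccl8.
Ccl12, chr11:82101595-82101844: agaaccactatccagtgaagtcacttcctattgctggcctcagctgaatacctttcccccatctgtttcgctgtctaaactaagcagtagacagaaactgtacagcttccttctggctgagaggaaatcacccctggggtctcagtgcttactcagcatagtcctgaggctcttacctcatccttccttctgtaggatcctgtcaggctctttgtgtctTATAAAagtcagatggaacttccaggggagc
Ccl8, chr11:82114935-82115184: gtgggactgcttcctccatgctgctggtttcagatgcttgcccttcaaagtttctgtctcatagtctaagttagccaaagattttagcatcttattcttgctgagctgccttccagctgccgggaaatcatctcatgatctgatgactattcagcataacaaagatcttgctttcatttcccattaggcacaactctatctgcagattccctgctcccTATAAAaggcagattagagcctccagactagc
This motif was found in 8.32% of 32851 promoter windows, each running from 250 bases before to 50 bases after the start. It was also in the window of Cx3cl1, where it began only 6 bases before the start site. In none of the 5 windows did a search of both strands find the interferon-stimulated response element (GAAANNGAAA), the STAT motif (TTCNNNGAA) or the NF-κB consensus, which were present in 3.44%, 8.3% and 4.51% of all windows. The absence of these letters from a window says nothing of the factors that bind elsewhere.

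The recovered counts, which are the probe counts before the authors' scaling, summed to between 106206 and 1519471 per tumor. The olaparib tumor 1517 was counted least, so that a single probe count there was scaled up more than in any other tumor. The lowest recovered counts of 6 of the 7 genes were in this tumor, with 13 for Ccl2, 17 for Ccl7, 21 for Ccl12, 26 for Ccr2, 28 for Cx3cr1 and 32 for Cx3cl1. Epithelial and leukocyte markers were detected in every tumor, with Epcam between 4580 and 15843 normalized counts. Keratin genes were not analysed here. These are bulk tumor samples, in which fewer cells of a type and less RNA per cell cannot be told apart.

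Ccl2, the main CCR2 ligand, was 379, 969 and 790 normalized counts in the vehicle tumors 1269, 1529 and 1536. It was 1982, 1479 and 810 in the ADU-S100 tumors 1506, 1512 and 1513, and 397, 136 and 612 in the olaparib tumors 1510, 1517 and 1521. In the combination tumors 1251, 1270 and 1539 it was 966, 503 and 513. The 2 highest of the 12 values were thus in ADU-S100 tumors and the lowest was in olaparib tumor 1517, while each pair of groups overlapped except ADU-S100 and olaparib. The value of 136 in tumor 1517 has a 95% Poisson interval of 72.5 to 233, which covers counting error only. In group means Ccl2 was 1424 ± 588 with ADU-S100 (SD, n = 3), 713 ± 303 with vehicle, 661 ± 265 with the combination and 382 ± 238 with olaparib. On the log2(normalized count + 1) scale, which understates the change of low genes, ADU-S100 exceeded vehicle by 1.01 (SE 0.62, limma adjusted p = 0.809), and by 0.61 without vehicle tumor 1269. Olaparib differed from vehicle by -1.04 (SE 0.62, adjusted p = 0.582), and by -0.42 without the thinly counted tumor 1517. The combination was close to vehicle, at -0.07 with a 95% interval of -1.42 to 1.28, which spans both a halving and a doubling.

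Ccl7, a second CCR2 ligand encoded next to Ccl2, was 66.2, 401 and 232 normalized counts in the vehicle tumors, in the order given above. It was 1151, 477 and 320 in the ADU-S100 tumors, 101, 178 and 122 in the olaparib tumors, and 196, 143 and 142 in the combination tumors. All ADU-S100 tumors exceeded all combination and all olaparib tumors, whereas the vehicle tumor 1529 lay within the ADU-S100 range. Group means were 649 ± 441 with ADU-S100 (SD, n = 3), 233 ± 168 with vehicle, 160 ± 31.1 with the combination and 134 ± 39.8 with olaparib. Against vehicle the log2 difference was 1.60 for ADU-S100 (SE 0.65, limma adjusted p = 0.809), and it ranged from 0.87 without vehicle tumor 1269 to 2.17 without vehicle tumor 1529. The combination differed from ADU-S100 alone by -1.82 (SE 0.65, 95% interval -3.25 to -0.38, limma adjusted p = 0.492). Leaving out each tumor moved this difference between -2.22 (without 1513) and -1.30 (without 1506), and it kept its sign in every alternative tried. Olaparib alone differed from vehicle by -0.49 (adjusted p = 0.764), and by 0.07 without vehicle tumor 1529 or -1.22 without vehicle tumor 1269. It was negative in every other alternative.

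Ccl12, a mouse CCR2 ligand, varied less. It was 154, 327 and 345 normalized counts with vehicle, 718, 267 and 305 with ADU-S100, 170, 220 and 358 with olaparib, and 440, 216 and 303 with the combination. One ADU-S100 tumor, 1506, stood above the others, and every pair of groups overlapped. ADU-S100 exceeded vehicle by 0.58 on the log2 scale (SE 0.52, adjusted p = 0.809), and by 0.14 without tumor 1506.

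Ccl8 varied most between tumors of one group. It was 143, 4088 and 590 normalized counts with vehicle, 3498, 633 and 487 with ADU-S100, 283, 6487 and 228 with olaparib, and 322, 603 and 462 with the combination. In each group but the combination, 1 tumor (1529, 1506 and 1517) stood several times above the other two. Over the 12 tumors the highest value was 45.3 times the lowest, a wider range than that of 94.2% of the 689 genes tested, for which the median was 7.14. In tumor 1517, Ccl8 rested on 619 recovered counts, with a 95% Poisson interval of 5986 to 7019 normalized counts. The combination differed from vehicle by -0.65 (SE 1.40), with a 95% interval of -3.71 to 2.41, and by 0.62 when vehicle tumor 1529 was left out.

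Ccr2, the receptor of CCL2, CCL7 and CCL12, was 63.4, 476 and 393 normalized counts with vehicle and 883, 375 and 154 with ADU-S100. It was 109, 272 and 66 with olaparib, and 206, 329 and 211 with the combination. The highest value was again in ADU-S100 tumor 1506, and the lowest values were in vehicle tumor 1269 and olaparib tumor 1521. Olaparib differed from vehicle by -0.86 on the log2 scale (SE 0.85, adjusted p = 0.71), and by -0.34 without vehicle tumor 1529 or -1.78 without vehicle tumor 1269. The combination exceeded olaparib by 0.95 (SE 0.85, adjusted p = 0.728), and by 0.49 without olaparib tumor 1521 or 1.50 without 1517.

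Cx3cl1 was the most even of the 7 genes. It was 285, 385 and 172 normalized counts with vehicle, 285, 248 and 315 with ADU-S100, 327, 335 and 232 with olaparib, and 404, 310 and 353 with the combination. The highest value was 2.34 times the lowest, and 8.27% of the genes tested had a narrower range. The combination exceeded vehicle by 0.41 (SE 0.38, 95% interval -0.43 to 1.24, adjusted p = 0.949), and by 0.09 without vehicle tumor 1536.

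Its receptor Cx3cr1 was 323, 1039 and 1067 normalized counts with vehicle, 1290, 829 and 568 with ADU-S100, 522, 293 and 523 with olaparib, and 629, 635 and 667 with the combination. The 3 combination tumors lay closer together than the tumors of any other group, and their Poisson intervals overlapped. All of them exceeded all olaparib tumors, by 0.58 on the log2 scale (SE 0.52, adjusted p = 0.728), and by 0.30 without the thinly counted tumor 1517. Olaparib differed from vehicle by -0.72 (SE 0.52, adjusted p = 0.623), although vehicle tumor 1269 lay within the olaparib range. This difference was -1.29 without tumor 1269, -0.45 without 1529, -0.43 without 1536 and -0.44 without 1517.

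**Figure D1:**
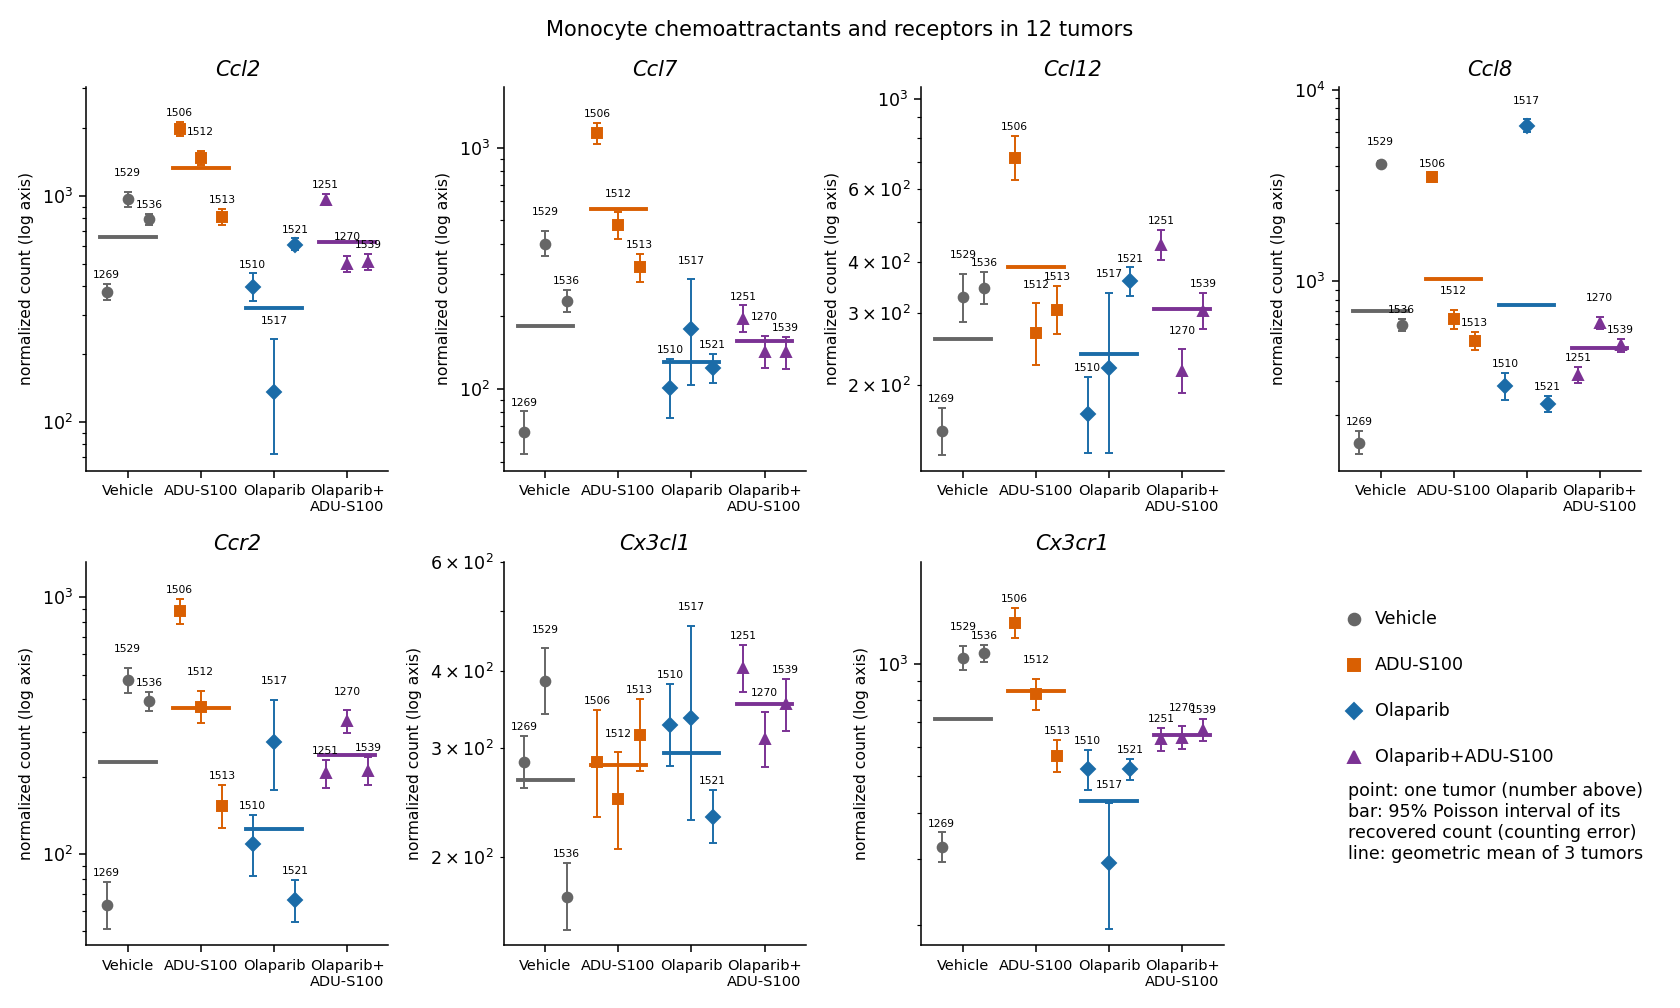
Normalized counts (log axis) of the 7 genes in each of 12 tumors by treatment group, with the 95% Poisson interval of the recovered count as a bar and the geometric mean of each group as a line. Ccl7 in the ADU-S100 tumors (320 to 1151) lies above all combination tumors (142 to 196), and Ccl8 is high in 1 tumor each of the vehicle, ADU-S100 and olaparib groups.

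Each comparison was fitted by limma over the 12 tumors and all 689 genes that passed a filter on low values, with p-values adjusted over all of them. None of the 7 genes, and 0 of the 689, passed an adjusted p of 0.05 in any of the 8 comparisons. A count model, edgeR's quasi-likelihood test, also called 0 genes in each, under the scaling of the authors and under TMM. Before adjustment, 21 to 75 genes per comparison were under 0.05 in limma and 21 to 124 in edgeR. The lowest adjusted p for any of the 7 genes in any alternative was 0.117. Under 0.05 without adjustment in limma were Ccl7 for ADU-S100 against vehicle, where 4.79% of all genes were, and Ccl7 for the combination against ADU-S100, where 9.14% were. With the number series of the tumors as a block, with the log2 scaling factor as a covariate, or without ADU-S100 tumor 1506, neither was. The former was also not under 0.05 without vehicle tumor 1269, in a fit on both groups alone, by the methods' t-test or in edgeR with TMM. For olaparib or the combination against vehicle, and for the combination against olaparib, none of the 7 genes was under 0.05 without adjustment in limma with all tumors, against 7.26%, 7.69% and 7.26% of all genes. Other settings brought some under it. For olaparib against vehicle these were Ccr2 (quantile normalization, the scaling factor as a covariate, edgeR with TMM, or without tumor 1269), Cx3cr1 (without 1269) and Ccl2 (without 1521). For the combination against olaparib they were Ccl2 (without 1521) and Ccr2 (the covariate), for the combination against ADU-S100 Ccl2 (a fit on both groups alone, or the covariate), and for ADU-S100 against vehicle Ccl2 (the covariate). The 2 groups did not overlap for Ccl7 in the combination against ADU-S100, where it was lower, as were 20.9% of all genes (31.3% in either direction). They did not overlap for Cx3cr1 in the combination against olaparib, where it was higher, as were 11% of all genes (12.8% in either direction). For none of the 7 genes were ADU-S100, olaparib or combination tumors apart from all vehicle tumors, against 14.9%, 4.79% and 20% of all genes. A count of 1 among 7 genes is not read as different from these shares.

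ADU-S100 and olaparib tumors, which were compared directly after it was seen that they were apart, did not overlap for Ccl2, Ccl7 and Cx3cr1. All 3 were higher with ADU-S100, as were 2.61% of all genes without overlap (3.34% in either direction). After scaling each tumor to the same median the 3 genes were Ccl2, Ccl7 and Ccr2, against 2.76% of all genes higher. The pair was chosen because it was seen to be apart, and Ccl2, Ccl7 and Cx3cr1 varied together (r = 0.73 to 0.85). These counts are therefore not read against the shares of all genes. The log2 difference was 2.05 for Ccl2 (SE 0.62), 2.10 for Ccl7 (SE 0.65) and 0.97 for Cx3cr1 (SE 0.52), each with a limma adjusted p of 0.998. Ccl2 and Ccl7 were under 0.05 before adjustment, as were 2.03% of all genes, and 0 genes passed the adjusted test. That share ranged from 1.03% (without 1512) to 11.6% (without 1521) over the alternatives. Ccr2 (1.56, SE 0.85) was under 0.05 too in several, among them each tumor scaled to the same median, quantile normalization and the scaling factor as a covariate. Cx3cr1 was without vehicle tumor 1269. Leaving out single tumors moved the difference from 1.43 (without 1517) to 2.51 (without 1521) for Ccl2, from 1.58 (without 1506) to 2.50 (without 1513) for Ccl7, and from 0.67 (without 1506) to 1.26 (without 1513) for Cx3cr1.

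Each drug was also compared across both levels of the other, with 6 tumors that received it against 6 that did not. With olaparib, Ccl2 was lower by a log2 difference of -1.06 (SE 0.44, limma adjusted p = 0.548) and Ccl7 by -1.16 (SE 0.46, limma adjusted p = 0.548). Both differences kept their sign in every alternative, from -1.30 to -0.75 for Ccl2 and from -1.52 to -0.87 for Ccl7. These 2 genes were the ones under 0.05 before adjustment among the 7, and 7.55% of all genes were. With the number series as a block, or without any one of vehicle tumors 1529 and 1536, ADU-S100 tumor 1506 and combination tumors 1270 and 1539, neither was. Ccr2 was as well with quantile normalization, in edgeR with TMM or without vehicle tumor 1269, and Cx3cr1 without that tumor. The summed level of fibroblast markers was 7209 to 30935 in olaparib and 15526 to 30038 in combination tumors, against 18395 to 94232 in vehicle and 36733 to 60604 in ADU-S100 tumors. Of the 7 such markers tested, 0 passed the adjusted test, 4 were lower and 0 higher under 0.05 before adjustment, and their median difference with olaparib was -1.01 (all genes 0.10). The r of Ccl7 with the fibroblast sum over 12 tumors was 0.75 (0.69 with each tumor scaled to the same median), and that of Ccl2 was 0.47 (0.54). The part of fibroblasts in the Ccl2 and Ccl7 values was not tested. With ADU-S100, Ccl2 exceeded the tumors without it by 0.99 (SE 0.44, limma adjusted p = 0.999) and Ccl7 by 0.94 (SE 0.46, limma adjusted p = 0.999). The value of Ccl7 was 0.58 without vehicle tumor 1269. Of the 7 genes, Ccl2 was the one under 0.05 before adjustment here, as were 3.05% of all genes, and it was not in several alternatives, among them each tumor scaled to the same median, edgeR with TMM and leaving out tumor 1517, where its difference was 0.68. Ccl7 was under 0.05 in several others, among them the number series as a block and each tumor scaled to the same median. Of 7 neutrophil markers tested, 0 passed the adjusted test and 2 (Csf3r and Camp) were higher with ADU-S100 under 0.05 before adjustment, with a median difference of 0.35 (all genes 0.14). The summed level of all 8 such markers in the table was 1958 to 7782 in ADU-S100 and 1613 to 1801 in combination tumors, against 1079 to 2229 in vehicle and 744 to 3429 in olaparib tumors. Most of this sum was S100a8, which averaged 1373, 3683, 2245 and 1479 with vehicle, ADU-S100, olaparib and the combination. Csf3r averaged at most 120 and Camp at most 35.4. The ADU-S100 difference of S100a8 was 0.53 (SE 0.57, limma adjusted p = 0.999). The r of Ccl2 with this neutrophil sum was 0.54 (0.71 after scaling), and that of Ccl7 was 0.20 (0.33). The median ADU-S100 difference was larger for 6 NK cell markers (0.69) and 8 T cell markers (0.62), and that of Ptprc was 0.61. Of these markers, 2 of the NK list and 1 of the T cell list were higher under 0.05 before adjustment. The r of Ccl2 was -0.12 with the NK sum and -0.29 with the T cell sum, and that of Ccl7 was 0.46 and 0.14. The part of neutrophils or of these other cells in these values was not tested. For the other 5 genes the olaparib difference was -0.74 (Ccr2, SE 0.60), -0.56 (Cx3cr1, SE 0.37), -0.55 (Ccl8, SE 0.99), -0.23 (Ccl12, SE 0.37) and 0.24 (Cx3cl1, SE 0.27). The ADU-S100 difference was 0.82 (Ccr2, SE 0.60), 0.48 (Ccl12, SE 0.37), 0.41 (Cx3cr1, SE 0.37), 0.17 (Cx3cl1, SE 0.27) and -0.10 (Ccl8, SE 0.99). Single tumors moved these too, to 0.36 for Ccr2 and 0.13 for Cx3cr1 without 1269, 0.25 for Ccl12 without 1506, 0.01 for Cx3cl1 without 1536 and 0.68 for Ccl8 without 1517. Without one tumor the olaparib differences reached -1.20 for Ccr2 (1269), -0.84 for Cx3cr1 (1269), -0.01 for Ccl12 (1506), 0.08 for Cx3cl1 (1536), and for Ccl8 -1.33 (1517) and 0.08 (1529). In the comparison of the combination with each single drug, Ccl2 differed by -1.08 from ADU-S100 (SE 0.62, adjusted p = 0.554) and by 0.97 from olaparib (SE 0.62, adjusted p = 0.655). The latter was 0.35 without the thinly counted tumor 1517.

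The interaction is the difference between what ADU-S100 did in olaparib-treated tumors and in tumors without olaparib. It was -1.32 for Ccl7 (SE 0.93, 95% interval -3.35 to 0.71, adjusted p = 0.509), and none of the 7 genes was under 0.05 without adjustment, against 10.9% of all genes. Without vehicle tumor 1269 the value for Ccl7 was -0.59, without ADU-S100 tumor 1506 it was -0.80, and with the number series of the tumors as a block it was -0.35.

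The median log2 difference of the 7 genes from vehicle was 0.58 with ADU-S100, -0.49 with olaparib and -0.07 with the combination. Over all genes tested the medians were 0.44, 0.45 and 0.21, and 78.2%, 74.6% and 65.3% of all genes were higher than in vehicle tumors. The 7 genes numbered 7, 2 and 3 higher. Leaving out single tumors moved the median of the 7 genes from 0.07 (without 1506) to 1.22 (without 1529) with ADU-S100, from -1.22 (without 1269) to 0.04 (without 1529) with olaparib, and from -0.71 (without 1269) to 0.41 (without 1529) with the combination. Scaling each tumor to the same median moved the medians of all genes to 0.03, 0.10 and 0.01, those of the 7 genes to 0.17, -0.84 and -0.28, and their numbers higher to 5, 0 and 2. These comparisons share the vehicle tumors. The combination had a median of -0.61 for the 7 genes against ADU-S100 (all genes -0.22) and of 0.37 against olaparib (all genes -0.15). With a block for whether a tumor's number begins with 12 or 15, which the labels do not explain, the former was 0.03. Without ADU-S100 tumor 1506 it was -0.09, and without 1513 it was -1.24. The latter was 0.17 without combination tumor 1251 and 0.59 without 1270.

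**Figure D2:**
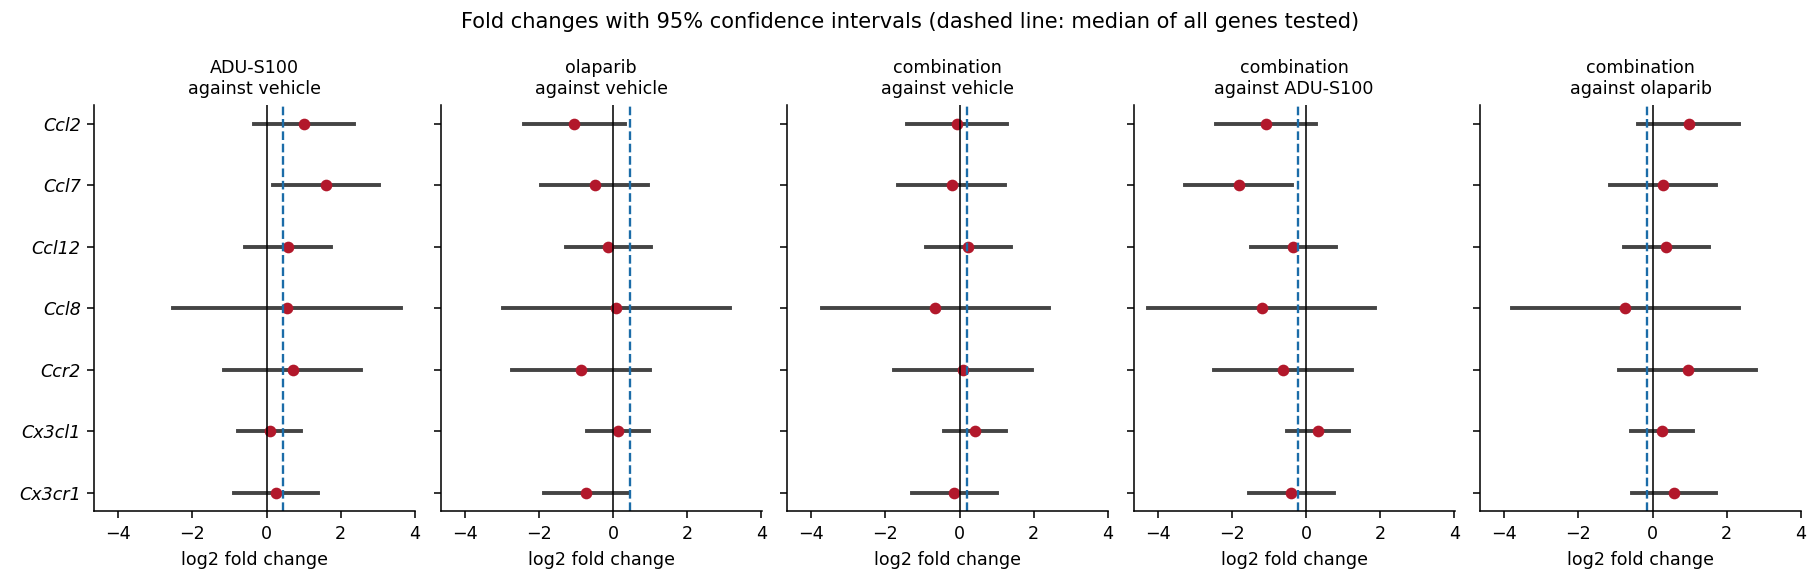
Log2 fold changes of the 7 genes in 5 comparisons of 3 against 3 tumors, with limma's 95% confidence intervals as bars and the median of all 689 genes tested as a dashed line. Only the intervals of Ccl7 for ADU-S100 against vehicle and for the combination against ADU-S100 exclude 0 before adjustment, and the intervals of Ccl8 are the widest.

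To see which genes of the panel each of the 7 resembled, Pearson's r of log2 values was computed over the 12 tumors and is given as a description. Because the tumors share one scaling factor per sample, r was also taken after scaling each tumor to the same median. Ccl2 was most like Msr1, a macrophage scavenger receptor, with r = 0.91 (0.93 after scaling), followed by Cx3cr1 at 0.85 (0.90) and the mitotic gene Birc5 at 0.75, which was 0.46 without tumor 1517. Msr1 was 144, 391 and 558 normalized counts in the vehicle tumors and 669, 576 and 298 in the ADU-S100 tumors. It was 212, 115 and 323 in the olaparib tumors and 421, 177 and 337 in the combination tumors, so that it too was lowest in tumor 1517 and highest in 1506.

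Ccl7 was most like the myeloid genes Itgam (CD11b, r = 0.88), C3ar1 (0.87) and Trem2 (0.86), which were 0.82, 0.81 and 0.80 after scaling. Ccl12 was most like the macrophage genes Cd68 (0.88), Fcgr1 (0.83) and the NADPH oxidase subunit Ncf4 (0.81). Ccr2 was most like Itgb2, the β2 integrin chain of leukocytes (r = 0.95, and 0.89 after scaling), then Csf1r, the CSF1 receptor (0.90, and 0.63 after scaling), and Pik3cd (0.87, and 0.44 after scaling). Cx3cr1 was most like Msr1 (0.89), Ncf4 (0.86) and lysozyme Lyz2 (0.86).

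The nearest genes of Ccl8 were Lyve1, a marker of lymphatic endothelium and of some resident macrophages (r = 0.98), Icam2, an endothelial adhesion molecule (0.97), and Cxcl12, a stromal chemokine (0.97). The 3 values were 0.95 each after scaling, and 0.96, 0.97 and 0.96 without tumor 1517. Cxcl12 was 160, 3101 and 287 normalized counts in the vehicle tumors, 1886, 328 and 387 in the ADU-S100 tumors, 134, 5931 and 94.9 in the olaparib tumors, and 142, 331 and 210 in the combination tumors. The tumors 1529, 1506 and 1517 were thus highest in both genes. Lyve1 was low, at 4 to 61 recovered counts. The summed level of 9 endothelial markers was 15984, 13871 and 37265 in these 3 tumors against 2188 to 4584 in the other 9. The summed level of 4 epithelial markers was 131872, 128720 and 25423 in the same 3, and the value of 1517 was the lowest of the 12. Most of this sum was Lcn2 in group means. Lcn2 averaged 158600 with vehicle, against 9687 for Epcam, 5432 for Cdh1 and 214 for Muc1. The r of Ccl8 with the log2 scaling factor, which is high where few counts were obtained, was 0.76 (0.68 after scaling). With that factor as a covariate the Ccl8 difference between the combination and ADU-S100 went from -1.19 to 0.71. The part of endothelium and epithelium in the Ccl8 values was not tested.

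Among the 7 genes, r was 0.85 for Ccl2 with Cx3cr1, 0.83 for Ccl7 with Ccr2 and 0.75 for Ccl8 with Ccr2. Within groups, with each group's mean removed, these values were 0.80, 0.89 and 0.86, and after scaling they were 0.90, 0.75 and 0.49. Among the CC ligands of the chromosome 11 cluster, r was 0.75 for Ccl7 with Ccl12 (0.59 after scaling, 0.76 within groups), 0.73 for Ccl2 with Ccl7 (0.75 and 0.48) and 0.71 for Ccl2 with Ccl12 (0.83 and 0.66). Ccl8 had r = 0.64 with Ccl7 (0.32 after scaling, 0.80 within groups), 0.35 with Ccl12 (-0.31 and 0.36) and 0.00 with Ccl2 (-0.32 and -0.12). Cx3cl1 stood apart from its receptor, with r = -0.23 (0.30 after scaling). Its nearest genes depended on the scale. As deposited they were Icos (0.78), Cd5 (0.74) and Cd44 (0.73), and after scaling they were the epithelial adhesion molecule Epcam (0.92), Cd81 (0.92) and Yy1 (0.89), for which r as deposited was 0.32, 0.55 and 0.27.

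**Figure D3:**
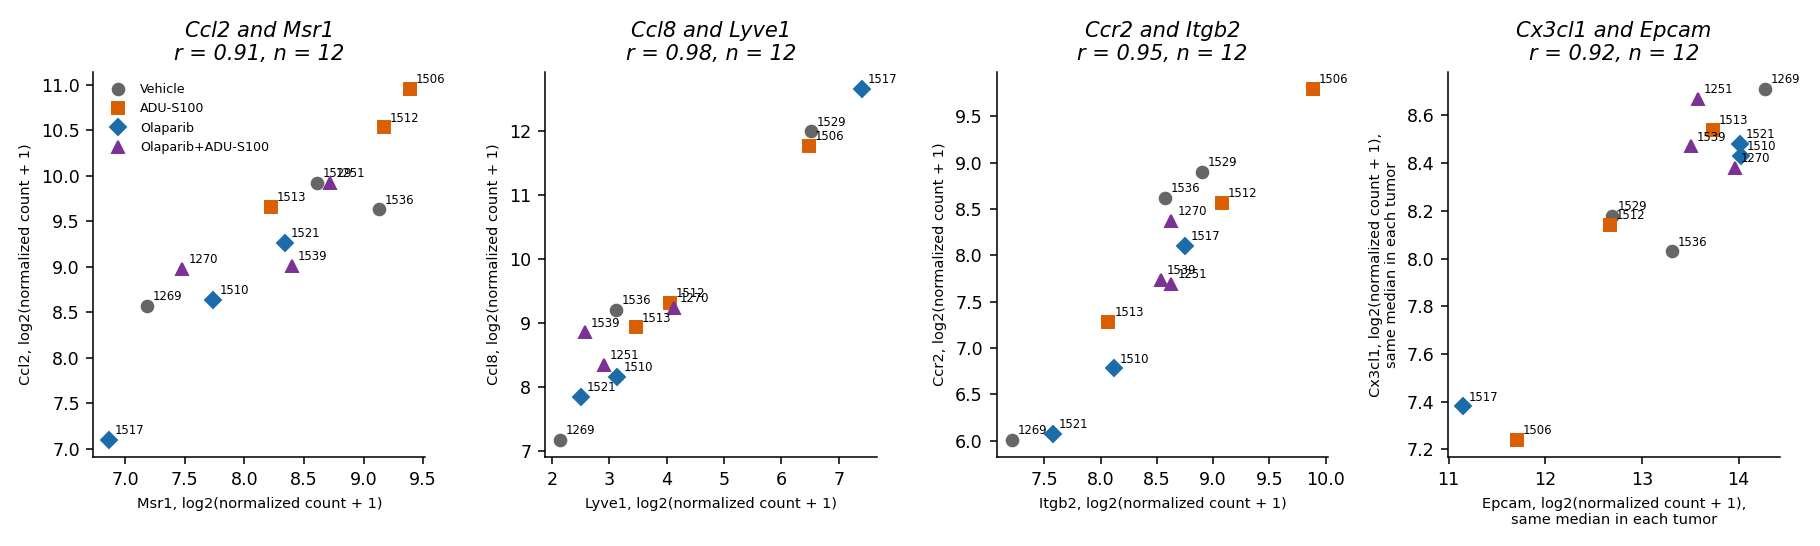
Log2(normalized count + 1) of 4 of the genes against a gene of like pattern in 12 tumors, the last pair after scaling each tumor to the same median. Ccl8 and Lyve1 are both highest in tumors 1529, 1506 and 1517. Cx3cl1 and Epcam are both lowest in 1517 and 1506 after this scaling, which lowered all genes most in these tumors. As deposited, Cx3cl1 was 335 and 285 normalized counts there, and its r with Epcam was 0.32.

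Levels of marker lists, each the sum of its genes' normalized counts and so led by its most abundant genes, were set beside these patterns. The 14 markers of mononuclear phagocytes, which include Csf1r and Msr1, summed to 8296 to 21214 in vehicle tumors and 12233 to 28241 in ADU-S100 tumors. They summed to 11232 to 15510 in olaparib tumors and 15783 to 16992 in combination tumors. No marker of this list was at the floor in any tumor, and 0 of 14 passed the adjusted test in any comparison. With this sum, r was 0.87 for Ccr2, 0.81 for Ccl12 and Cx3cr1, 0.77 for Ccl7, 0.66 for Ccl8, 0.53 for Ccl2 and -0.11 for Cx3cl1. After scaling to the same median it was 0.53, 0.85, 0.92, 0.51, -0.20, 0.76 and 0.24 in the order Ccr2, Ccl12, Cx3cr1, Ccl7, Ccl8, Ccl2 and Cx3cl1. With the endothelial sum, r was 0.94 for Ccl8 (0.86 after scaling) and between -0.16 and 0.56 for the others. With the epithelial sum, most of which was Lcn2, it was -0.72 for Ccl8 (-0.80 after scaling) and 0.05 for Cx3cl1 (0.84 after scaling). After scaling it was also 0.69 for Ccl2, 0.67 for Cx3cr1 and 0.65 for Ccl12, but 0.08 for Ccl7 and -0.05 for Ccr2. The r of Cx3cl1 with the log2 scaling factor was 0.26, and -0.76 after scaling. The part of cell numbers in the levels of the 7 genes was not tested.

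**Figure D4:**
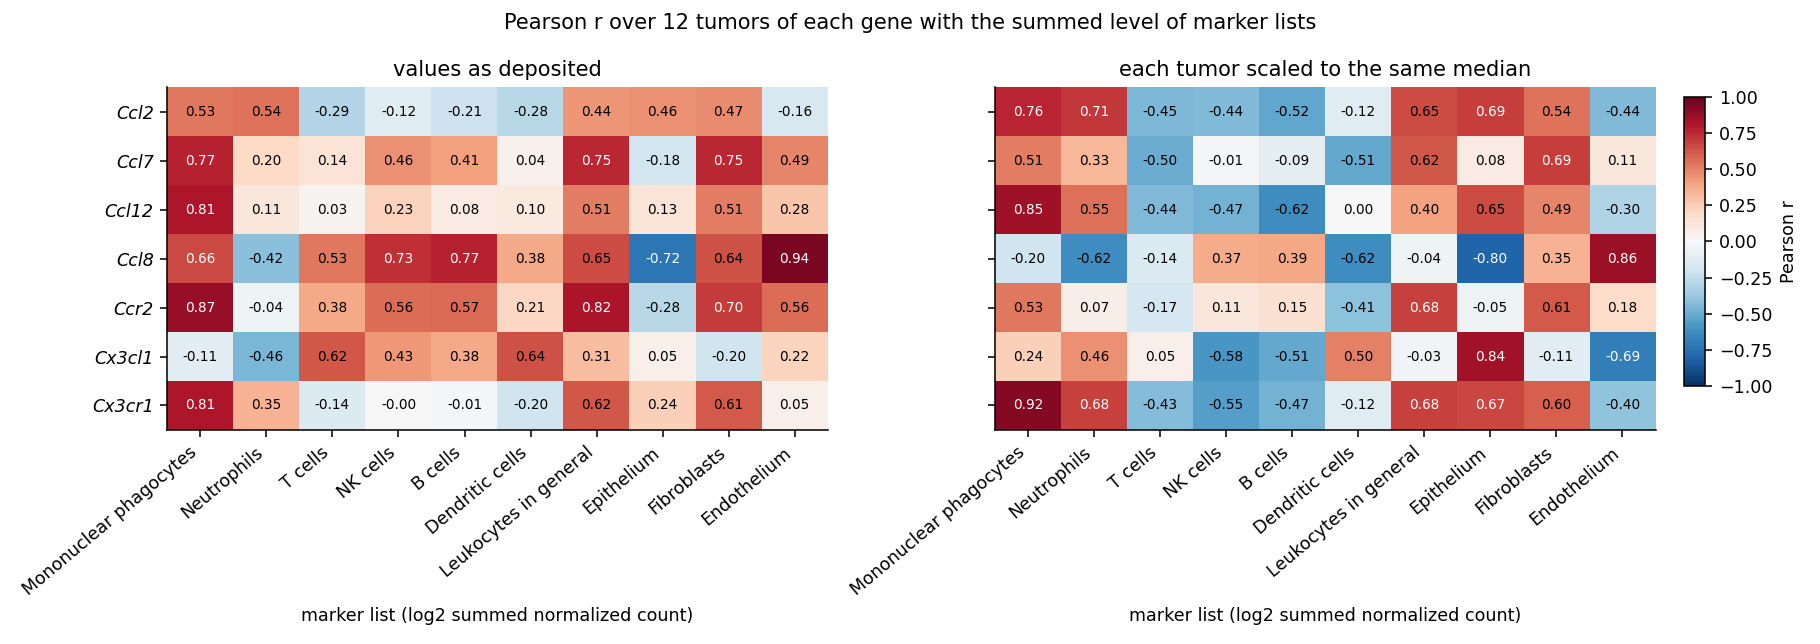
Pearson's r over 12 tumors of each of the 7 genes with the log2 summed level of 10 marker lists, as deposited (left) and with each tumor scaled to the same median (right). Ccl8 has r = 0.94 and 0.86 with endothelium and -0.72 and -0.80 with epithelium, and Cx3cl1 has r = 0.84 with epithelium on the right and 0.05 on the left. Most of the epithelial sum was Lcn2, and most of the neutrophil sum was S100a8.

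Of the other genes of these pathways, none passed the adjusted test in any of the 8 comparisons. Among 15 tested of 17 other CC chemokines, the median difference from vehicle was 0.73 with ADU-S100, 0.79 with olaparib and 0.10 with the combination. Ccl3, a ligand of CCR1, averaged 34.9, 125, 91.7 and 96.7 normalized counts with vehicle, ADU-S100, olaparib and the combination, and ADU-S100 exceeded vehicle by 1.73 on the log2 scale (SE 0.65, limma adjusted p = 0.809). Ccl5, a chemoattractant of T cells, averaged 111, 309, 177 and 760 in the same order, and the combination exceeded vehicle by 2.80 (SE 0.70, limma adjusted p = 0.278). Ccl6 went the other way, at 1, 1 and 4.1 in the combination tumors, where 1 is the floor of the table, against 390, 41.3 and 85.6 in the ADU-S100 tumors and 40.9, 472 and 13 in the olaparib tumors. In the vehicle tumors it was 1, 162 and 42.3, so that vehicle tumor 1269 was at the floor as well. The tumors at the floor, 1269, 1251 and 1270, were all the tumors of the lower number series. Combination tumor 1539, of the other series, had 5 recovered counts. No ADU-S100 or olaparib tumor was of the lower series, so the low Ccl6 values followed the number series as well as the combination. The part of the number series in the Ccl6 values was not tested. The limma adjusted p of Ccl6 was 0.492 for the combination against ADU-S100 and 0.594 against olaparib. Among the 8 tested of 9 other CC and atypical receptors in the table, Ccr1 averaged 110, 138, 75.8 and 160 in the same order of groups, and the combination exceeded olaparib by 1.05 (SE 0.46, limma adjusted p = 0.594).

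Of 9 growth factors and receptors of mononuclear phagocytes and granulocytes, Csf3r, the G-CSF receptor, had the smallest p-value for ADU-S100 given against not given. It averaged 40.9 with vehicle, 120 with ADU-S100, 34.5 with olaparib and 89.4 with the combination, with a difference of 1.46 (SE 0.38, limma adjusted p = 0.999). Csf1, the main growth factor of macrophages, averaged 1448, 1191, 1014 and 1725 in the same order. Of 17 genes of STING, NF-κB and interferon transcription control, Ikbke, an NF-κB and interferon kinase, averaged 418 with vehicle, 1180 with ADU-S100, 1033 with olaparib and 380 with the combination. ADU-S100 exceeded vehicle by 1.42 (SE 0.63, limma adjusted p = 0.809), and the combination differed from ADU-S100 by -1.48 (SE 0.63, limma adjusted p = 0.492). Relb, an NF-κB subunit, averaged 411, 469, 853 and 593 in the same order, and olaparib exceeded vehicle by 1.03 (SE 0.37, limma adjusted p = 0.577). The median difference of this list from vehicle was 0.27, 0.71 and 0.40 for ADU-S100, olaparib and the combination, against 0.44, 0.45 and 0.21 over all genes.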

How the data were processed

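RNA (snap-frozen tumors) was counted on the nanoString nCounter panel. The deposited signal values are normalized counts that the authors made with nSolver 4.0 by background correction and scaling to positive controls and housekeeping genes. The labels gave each tumor its group. Nothing in the labels says how tumor numbers were given. P-values set a difference against the spread between these tumors within groups. How many donor tumors the transplants came from is not known here, so the tumors may not be independent. The members and gene lists were chosen with earlier results of these data known, and the named genes were all 7 members, the 3 tested genes most like each, and in each list those of smallest unadjusted p. Some genes that this rule names are not reported here.

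Values were analysed as log2(normalized count + 1). Genes with at least 20 in at least 3 tumors (689 of 750, all 7 members among them) were fitted with limma 3.58.1 in R 4.3.3 as one mean per group over 12 tumors, with Benjamini-Hochberg adjustment over all 689 and a threshold of 0.05. Counts before scaling were recovered from the step of which the values are whole multiples (at least 99.87% within 0.01 of a count). In 7 tumors the lowest value is several steps, so that the step there rests on a fit to all low values. Poisson intervals were taken from these counts. A count model (edgeR 4.0.16, quasi-likelihood) and the log2 scaling factor as a covariate were alternatives added after seeing the data, as was the comparison of ADU-S100 with olaparib. Promoter windows are from RefSeq (GRCm38.p6), and the TATA box was searched in addition to the planned motifs. Probe sequences were not used here, so hybridization between related chemokines could not be checked. Scripts were tested on simulated data. Figures were drawn with matplotlib 3.10.9.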

Additional observations from a re-analysis of the deposited data

How the results depend on the processing

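Over up to 24 alternatives, 0 of the 7 genes passed the adjusted test in any comparison. Of 56 differences (7 genes in 8 comparisons), 29 kept their sign in every alternative and 27 did not. Those that kept it were 6 of 8 for Ccl2 and Ccl7, 5 for Cx3cr1, 4 each for Ccl12, Ccr2 and Cx3cl1, and 0 for Ccl8. In the combination against vehicle, the tumor number series as a block turned Ccl2 to 0.06 and Ccl7 to 0.11. With the log2 scaling factor as a covariate, added after seeing the data, Ccl8 in the combination against ADU-S100 was 0.71. When single tumors were left out, the combination against vehicle ranged from -0.47 to 0.20 for Ccl2, from -0.94 to 0.35 for Ccl7 and from -1.79 to 0.62 for Ccl8. The olaparib against vehicle difference of Ccl7 ranged from -1.22 to 0.07, and that of Ccl8 with olaparib given against not given from -1.33 to 0.08.

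The median of the 7 genes for olaparib against vehicle ranged from -1.22 (without vehicle tumor 1269) to 0.04 (without 1529). The number of genes called over the panel was 0 with all tumors and 55, 54 and 86 without olaparib tumor 1521 for olaparib against vehicle, the combination against olaparib and the interaction. These counts ranged from 0 to 55, 0 to 54 and 0 to 86 over the tumors left out. For the combination against vehicle it was 2 in a fit on both groups alone, 3 by the methods' t-test and 4 with the scaling factor as a covariate. The t-test was adjusted here by Benjamini-Hochberg, whereas the study used Benjamini-Yekutieli. For the combination against ADU-S100 it was 1 with a pseudocount of 10, a filter at 50, the same median in each tumor, quantile normalization or an intensity trend, and 0 to 1 over the tumors left out. The cause was not tested. No paired analysis was possible because the groups share no tumor numbers. In tumor 1517, counts of 13 to 32 for 6 of the 7 genes limit what that tumor can show.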
